A study of Homo sapiens with 18 samples.

Results

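SR proteins are splicing factors that bind short enhancer sequences in exons and bring the spliceosome to nearby splice sites, and CLK1 is a nuclear kinase that phosphorylates them. The genes of 9 SRSF proteins (SRSF1, SRSF2, SRSF3, SRSF4, SRSF5, SRSF6, SRSF7, SRSF10 and SRSF11) and CLK1 were followed here in IMR90 cells, a line of primary human lung fibroblasts. They were taken by symbol from a table of 56269 genes (31441 with at least 1 read somewhere in the series), and all 10 were found and passed the filter on low values. In this family, an RNA recognition domain reads the exon and a tail rich in arginine and serine contacts other splicing proteins. The tail is phosphorylated by SRPK kinases in the cytoplasm and by CLK kinases in the nucleus, and is dephosphorylated by protein phosphatase 1. SR protein genes commonly carry an exon or intron whose retention in the message introduces an early stop codon and sends it to nonsense-mediated decay, and CLK1 messages can retain introns in a way that changes under stress. The counts analysed here were summed over each gene, so they do not separate such messages from coding ones.

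The study tested whether the polymer length of hyaluronan (HA) from naked mole-rat skin fibroblasts changes the stress response of human cells. The pre-incubation lasted 6 h, in PBS alone, in 20 µg/ml of cNSF-HA, the control preparation of very high molecular mass that was heated with inactivated hyaluronidase, or in 20 µg/ml of fNSF-HA, the same material partially fragmented by hyaluronidase before heating. Polyadenylated RNA was sequenced from cells collected at the end of this pre-incubation, and from cells that were then freed of HA or PBS, given the oxidant tBHP (tert-butyl hydroperoxide) at 200 µM during 1 h, and harvested 6 h from the start of that exposure. Each of the 6 groups had 3 libraries, 18 in all. The study's methods call all of its replicates biological, while the labels do not say whether the 3 libraries came from separate cultures, and p-values measure the spread between these libraries. No group was cultured for the additional 6 h without the oxidant, so exposure to tBHP and the later collection cannot be told apart, and "tBHP response" below stands for both.

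The libraries held 20261103 to 26287660 reads on genes (median 22526525), and each member gene held between 755 and 8694 reads in every library. Values are normalized counts, that is, reads over a size factor that stands for the depth of a library. The 8 fibroblast markers, such as COL1A1, COL1A2 and VIM, summed to 452013 to 717947 in a library. The 5 epithelial markers summed to 0.977 to 14.5, the 4 endothelial markers to 6.52 to 25.1 and the 4 leukocyte markers to 1.97 to 11.3. Among the defining markers, KRT5, SFTPC, CDH5 and MS4A1 were at 0 in all 18 libraries. Libraries differed more after tBHP: the median SD within groups, over 13686 genes, was 0.076 on the log2 scale without tBHP and 0.21 after it. Replicate 2 of the fNSF-HA cells after tBHP stood apart. Against the mean of the 9 libraries with tBHP, among genes put into 10 bins of equal size by the GC content of their transcripts, those of the lowest bin had a median log2 deviation of 0.48 in this library and those of the highest bin one of -0.78, while in the other 8 libraries these medians lay between -0.26 and 0.14 and between -0.19 and 0.33. Of the 10 member genes, 8 were highest in this library among the 3 of their group, with a median deviation of 0.16. In replicate 1 of the PBS cells after tBHP, which had the opposite trend (-0.26 and 0.31), 9 of the 10 members were lowest of their group, with a median deviation of -0.15. Calls that change without one of these libraries are given with and without it.

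The sequences upstream of 4 members are shown because SRSF1 and SRSF10 fell after tBHP, SRSF4 rose, and CLK1 differed most between the HA preparations in stressed cells. They are the 250 bases before the RefSeq start site (GRCh38.p14), written 5′ to 3′ on the strand of the gene, with capitals marking matches to the antioxidant response element TGACNNNGC on either strand. SRSF1 lies on the minus strand (chr17:58007247-58007496, 60% GC, 28 CpG), as do SRSF10 (chr1:23980328-23980577, 61.2% GC, 23 CpG), SRSF4 (chr1:29181901-29182150, 73.6% GC, 36 CpG) and CLK1 (chr2:200864659-200864908, 64.4% GC, 30 CpG).
SRSF1: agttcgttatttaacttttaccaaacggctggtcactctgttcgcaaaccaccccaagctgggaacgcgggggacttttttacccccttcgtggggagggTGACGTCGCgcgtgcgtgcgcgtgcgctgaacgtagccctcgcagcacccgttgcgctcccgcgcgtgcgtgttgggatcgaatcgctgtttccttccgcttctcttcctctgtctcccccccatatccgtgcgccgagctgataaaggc
SRSF10: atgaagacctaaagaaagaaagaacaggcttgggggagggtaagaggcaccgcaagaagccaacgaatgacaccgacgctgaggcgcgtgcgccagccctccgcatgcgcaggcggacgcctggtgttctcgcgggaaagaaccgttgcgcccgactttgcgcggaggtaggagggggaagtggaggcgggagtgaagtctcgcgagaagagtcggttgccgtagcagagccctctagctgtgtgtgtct
SRSF4: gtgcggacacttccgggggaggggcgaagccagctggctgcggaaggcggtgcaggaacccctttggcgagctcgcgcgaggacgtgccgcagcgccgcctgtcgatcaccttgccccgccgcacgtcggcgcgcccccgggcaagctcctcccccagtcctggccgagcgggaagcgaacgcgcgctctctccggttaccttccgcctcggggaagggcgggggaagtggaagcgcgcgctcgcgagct
CLK1: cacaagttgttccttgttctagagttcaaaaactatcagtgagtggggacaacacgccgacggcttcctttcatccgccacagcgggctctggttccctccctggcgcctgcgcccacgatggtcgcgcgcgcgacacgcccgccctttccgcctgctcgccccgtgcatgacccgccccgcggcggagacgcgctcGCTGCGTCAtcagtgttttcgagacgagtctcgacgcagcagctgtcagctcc

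RefSeq promoter windows of 300 bases (250 before and 50 after the start site) were given for 9 of the 10 members, 12 windows in all, with 2 each for SRSF7, SRSF11 and CLK1 and no entry for SRSF2. Their median GC content was 62.7% and their median number of CpG was 30, against 58.7% and 14 over 34796 distinct promoters. The antioxidant response element was found in 4 of the 12 windows, namely both of CLK1 and those of SRSF5 and SRSF1, and in 13.3% of all promoters. The 2 CLK1 windows overlap and share a match, so that by gene it was found in 3 of 9. Counted from the start site, the match of SRSF1 began at -150 and the one in the CLK1 window shown at -53, the latter on the opposite strand. The heat shock element in both of its spellings (TTCNNGAA and GAANNTTC), the cAMP response element TGACGTCA and the E-box CACGTG were found in 0 of the 12 windows, and in 7.76%, 6.79%, 1.84% and 7.20% of all promoters. A match describes these letters only.

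Without tBHP, the levels of the members differed widely. Per kilobase of exon (the union of exons in GENCODE 29), SRSF2, a component of nuclear speckles that activates exon inclusion, was highest in PBS cells at 2210 ± 33.9 normalized counts (SD, n = 3). SRSF1, the SR protein that was first defined as a splicing factor, followed at 2022 ± 98.4. SRSF3, the shortest classical SR protein, which also takes part in mRNA export, came next at 1035 ± 32.4. SRSF7 (822 ± 19.2) and SRSF6 (816 ± 21.6) overlapped between libraries and could not be ordered. Below them, without overlap between neighbours, came SRSF5 (501 ± 7.39), SRSF11 (414 ± 37.5), SRSF10 (274 ± 12.3), SRSF4 (234 ± 2.14) and CLK1 (207 ± 12.8). SRSF4 is the longest classical SR protein, and SRSF11 is an SR-related protein. SRSF10 acts as a general repressor of splicing when it is dephosphorylated. After tBHP, SRSF4 (294 ± 28.6) stood above SRSF10 (218 ± 31.4) in PBS cells, the reverse of their order without tBHP, and SRSF10 and CLK1 (182 ± 14.0) overlapped. The summed normalized counts of the 9 SRSF genes were 38949 ± 1017 in PBS, 37651 ± 714 in cNSF-HA and 39596 ± 647 in fNSF-HA cells without tBHP, and 35639 ± 2504, 35173 ± 1638 and 36406 ± 2496 after it.

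**Figure D1:**
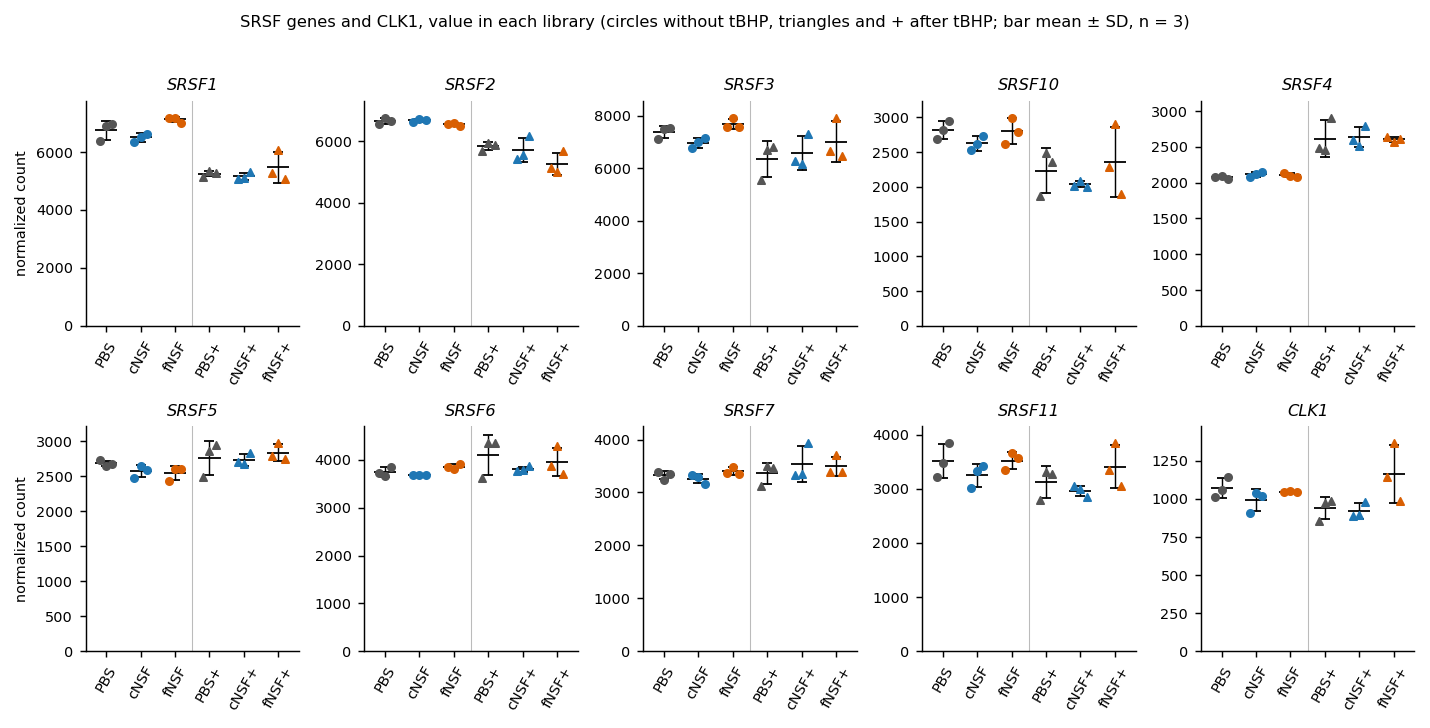
Normalized counts of the 9 SRSF genes and CLK1 in each of the 18 libraries (y axis from 0 in each panel; circles without tBHP, triangles and a plus sign after tBHP; grey PBS, blue cNSF-HA, orange fNSF-HA; bars mean ± SD, n = 3). SRSF1 is lower and SRSF4 higher in every library with tBHP than in any library without it, and replicate 2 of the fNSF-HA cells after tBHP is the highest of its group for 8 of the 10 genes.

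The first comparison asked how the oxidant changed these genes in each pre-incubation. In PBS cells, 4 of the 10 members fell (SRSF1, SRSF2, SRSF3 and SRSF10) and 1 rose (SRSF4), by limma on log2(normalized count + 1) with Benjamini-Hochberg adjustment over all 13686 genes with a mean of at least 10. Of all genes tested, 26.9% fell and 24.2% rose in this comparison. In cNSF-HA cells 3 members fell (SRSF1, SRSF2 and SRSF10) and SRSF4 rose, against 26.8% and 24% of all genes. In fNSF-HA cells 2 members fell (SRSF1 and SRSF2) and SRSF4 rose, against 22.7% and 19.2%. The median absolute log2 response in PBS, cNSF-HA and fNSF-HA cells was 0.19, 0.12 and 0.15 for the members and 0.35, 0.34 and 0.29 for all genes. It was 0.33, 0.34 and 0.24 for the members and 0.27, 0.26 and 0.26 for all genes with the dependence on GC content described next removed. As the RNA came from bulk cells, fewer cells that express a gene and less of its RNA per cell cannot be told apart. The split between falls and rises depended on scaling and on the GC content of transcripts: for PBS cells, TMM scaling gave 2 rises and 2 falls (all genes: 28.8% and 23.7%), edgeR 2 rises and 1 fall (29.7% and 23.5%), and removal of the dependence of each library on GC content and length of transcripts 7 rises and 0 falls (28.3% and 29.5%). For cNSF-HA cells, library weights gave 1 rise and 6 falls (36.1% and 35.8%).

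SRSF1 (chromosome 17, 58003360-58007346, GRCh38) fell in all 3 pre-incubations. Its normalized counts were 6376, 6898 and 6983 in PBS cells and 5148, 5333 and 5289 in PBS cells after tBHP. In cNSF-HA cells they were 6348, 6537 and 6629 without tBHP and 5077, 5119 and 5303 after it. In fNSF-HA cells they were 7187, 7174 and 7016 without tBHP and 5283, 6084 and 5064 after it. All 9 libraries with tBHP lay below all 9 without, the highest of the former being the fNSF-HA replicate 2 that stood apart. The log2 response was -0.36 (standard error 0.064, adjusted p = 0.000153) in PBS, -0.33 (adjusted p = 0.000346) in cNSF-HA and -0.38 (adjusted p = 0.000109) in fNSF-HA cells, that is, a fall to 0.779, 0.794 and 0.766 of the level without tBHP. With the GC trend removed it was -0.054 in PBS and -0.079 in cNSF-HA cells, neither past the threshold, and -0.24 (adjusted p = 4.9e-05) in fNSF-HA cells.

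SRSF2 (chromosome 17, 76734115-76737374) also fell in all 3. Its counts were 6564, 6769 and 6668 in PBS cells without tBHP and 5688, 5943 and 5871 after it. The cNSF-HA cells held 6616, 6713 and 6707 and then 5412, 5568 and 6173, and the fNSF-HA cells 6562, 6584 and 6514 and then 5118, 5016 and 5688. Again no library with tBHP reached the level of a library without it. The log2 response was -0.19 (standard error 0.060, adjusted p = 0.0129) in PBS, -0.23 (adjusted p = 0.00462) in cNSF-HA and -0.32 (adjusted p = 0.0004) in fNSF-HA cells. In PBS cells the call was lost with TMM scaling (-0.13), with edgeR (-0.13) and with the GC trend removed (-0.13), while in cNSF-HA and fNSF-HA cells it held under each of the 13 alternatives and without any 1 library. MFSD11 lies on the opposite strand and shares 1510 bases with SRSF2. The library kit does not mark strand, so reads of the overlap cannot be assigned by strand. MFSD11 had a mean of 323 normalized counts. Other annotated genes, without values here, also overlap members. They include AC005837.2 (opposite strand, 3260 bases of SRSF2), AC015813.2 (same strand, 3887 bases of SRSF1) and AL353771.1 (opposite strand, 2435 bases of SRSF11). Their effect on the counts was not tested.

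SRSF10 (chromosome 1, 23964804-23980927) fell in 2 pre-incubations. Its counts were 2690, 2822 and 2944 in PBS cells, and 1870, 2481 and 2357 after tBHP. In cNSF-HA cells they were 2526, 2614 and 2740 and then 2020, 2089 and 2004. In fNSF-HA cells they were 2625, 2997 and 2796 and then 2283, 2901 and 1896. The groups did not overlap in PBS and cNSF-HA cells, and overlapped in fNSF-HA cells through replicate 2 after tBHP. The log2 response was -0.34 (standard error 0.12, adjusted p = 0.023) in PBS and -0.37 (adjusted p = 0.0165) in cNSF-HA cells. The response of fNSF-HA cells was -0.27 (adjusted p = 0.0796). It passed the threshold without replicate 2 after tBHP (-0.43, adjusted p = 0.0012), with library weights (-0.41, adjusted p = 0.0268) and with a replicate block (-0.27). Without replicate 3 after tBHP it was -0.12, with TMM scaling -0.21 and with edgeR -0.19. The call in PBS cells was lost with edgeR (-0.27), and without PBS replicate 2 (-0.34), PBS replicate 3 (-0.31) or replicate 1 after tBHP (-0.22). With the GC trend removed the response was 0.03 in PBS and -0.03 in cNSF-HA cells. The call in cNSF-HA cells was also lost without cNSF-HA replicate 3 (-0.33).

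SRSF3 (chromosome 6, 36594353-36605600) passed the threshold in PBS cells, near it. Its counts were 7102, 7483 and 7518 without tBHP and 5548, 6672 and 6811 after it, with no overlap. In cNSF-HA cells the ranges 6760 to 7133 and 6167 to 7315 overlapped, as did 7550 to 7917 and 6458 to 7897 in fNSF-HA cells. The log2 response was -0.22 (standard error 0.087, adjusted p = 0.0424) in PBS cells. There it lost the call with no filter (-0.22), TMM scaling (-0.16), edgeR (-0.15) and DESeq2 (-0.22). The call was also lost without any 1 of 10 libraries, among them replicate 1 after tBHP (-0.13). In cNSF-HA cells it was -0.09 (95% interval -0.27 to 0.10) and in fNSF-HA cells -0.14 (-0.32 to 0.04). Without replicate 2 after tBHP, the response of SRSF3 in fNSF-HA cells was -0.23 (adjusted p = 0.0237), and with library weights that in cNSF-HA cells was past the threshold (-0.17). With the GC trend removed, SRSF3 instead rose past the threshold in PBS (0.18) and cNSF-HA cells (0.28), and was 0.08 in fNSF-HA cells.

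SRSF4 (chromosome 1, 29147743-29181987) was the member that rose. Its counts were 2084, 2093 and 2056 in PBS cells and 2478, 2456 and 2907 after tBHP. In cNSF-HA cells they were 2085, 2118 and 2149 and then 2600, 2512 and 2786, and in fNSF-HA cells 2131, 2091 and 2084 and then 2636, 2570 and 2612. The 9 libraries without tBHP lay within 2056 to 2149, and the 9 with tBHP all lay above them. The log2 response was 0.33 (standard error 0.066, adjusted p = 0.000484), 0.31 (adjusted p = 0.000726) and 0.31 (adjusted p = 0.000989), or 1.25-fold, 1.24-fold and 1.24-fold. It kept its direction and its call in all 3 pre-incubations under each of the 13 alternatives and without any 1 of the 18 libraries, and was larger with the GC trend removed (0.64, 0.71 and 0.52). Within a library, the ratio of SRSF4 to SRSF1 counts was 0.291 to 0.328 in the 9 libraries without tBHP and 0.422 to 0.550 in the 9 after it.

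**Figure D2:**
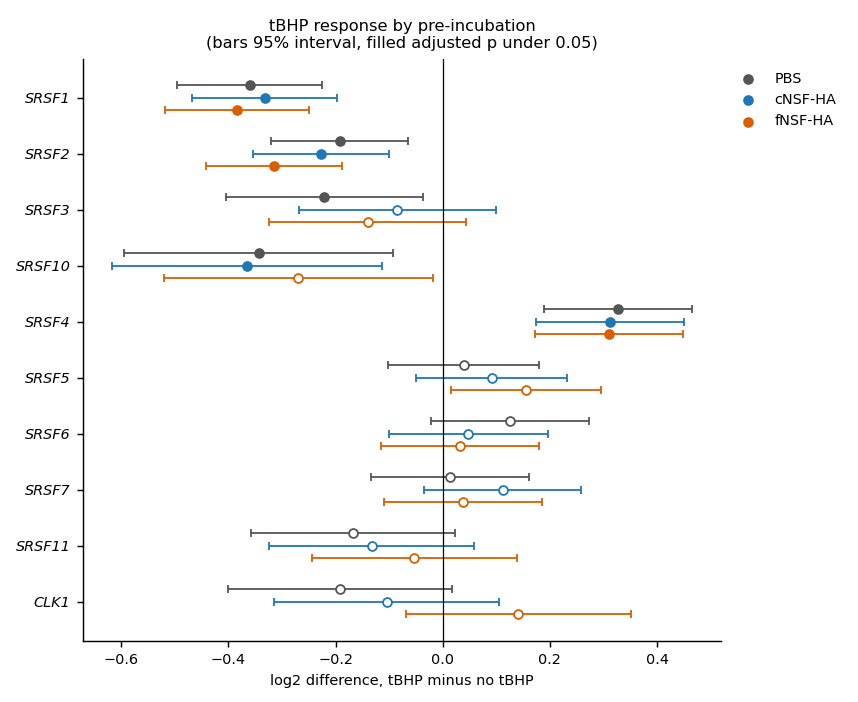
Log2 difference between libraries with and without tBHP (x axis) for each of the 10 genes (y axis) in PBS, cNSF-HA and fNSF-HA cells. Points are limma estimates with 95% intervals, filled where the adjusted p was under 0.05. SRSF1 and SRSF2 are filled on the left and SRSF4 on the right in all 3 pre-incubations.

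SRSF5, SRSF6, SRSF7 and SRSF11, which bind exonic enhancers or, for SRSF11, associate with the early spliceosome, did not pass the threshold in any pre-incubation. With the GC trend removed, however, each rose past it in all 3. In PBS, cNSF-HA and fNSF-HA cells, SRSF5 then rose by 0.39, 0.38 and 0.33, and SRSF6 by 0.51, 0.41 and 0.25. Likewise, SRSF7 rose by 0.31, 0.35 and 0.17, and SRSF11 by 0.35, 0.32 and 0.24. SRSF5 (chromosome 14, 69726900-69772005) ranged over 2655 to 2730 and 2489 to 2943 in PBS cells without and with tBHP. In cNSF-HA cells (2478 to 2647 and 2673 to 2835) and in fNSF-HA cells (2434 to 2611 and 2749 to 2975) its libraries did not overlap, being higher after tBHP. Its log2 response was 0.04 (95% interval -0.10 to 0.18), 0.09 (-0.05 to 0.23) and 0.16 (0.01 to 0.30, adjusted p = 0.071), the last being past the threshold with TMM scaling and edgeR (0.22 in both) and without replicate 1 of the PBS cells after tBHP (0.16). SRSF6 (chromosome 20, 43457928-43464247) ranged over 3668 to 3859 and 3617 to 4351 in PBS cells, with a log2 response of 0.13 (-0.02 to 0.27). With TMM scaling, edgeR and library weights this response was past the threshold (0.19 in each), as it was without replicate 1 after tBHP (0.21). Its response was 0.05 (-0.10 to 0.20) in cNSF-HA and 0.03 (-0.12 to 0.18) in fNSF-HA cells. SRSF7 (chromosome 2, 38743599-38751494) lay within 3164 to 3489 in the 9 libraries without tBHP and within 3126 to 3933 in the 9 after it, with responses of 0.01, 0.11 and 0.04 and intervals within -0.13 to 0.26. In cNSF-HA cells it passed the threshold with TMM scaling and edgeR (0.17 in both). SRSF11 (chromosome 1, 70205682-70253052) was at 3212 to 3843 and 2791 to 3316 in PBS cells, with a response of -0.17 (-0.36 to 0.02) that was -0.09 without replicate 1 after tBHP and past the threshold with quantile normalization (-0.22). It was -0.13 in cNSF-HA cells, past the threshold with library weights (-0.13), and -0.05 in fNSF-HA cells, where the sign turned with TMM scaling (0.01), edgeR (0.01) and without replicate 3 after tBHP (0.03), while without replicate 2 it was -0.14. Where libraries did not overlap between groups, 1 member was higher and 5 were lower in PBS cells (all genes: 31.8% and 32%), 3 and 3 in cNSF-HA cells (31.4% and 32.3%) and 2 and 2 in fNSF-HA cells (22.6% and 26.2%).

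CLK1 (chromosome 2, 200853009-200864744) was the kinase among the members and the one with the least reads. Its counts were 1015, 1057 and 1145 in PBS cells and 857, 973 and 989 after tBHP, with no overlap. In cNSF-HA cells 909, 1042 and 1022 were followed by 886, 894 and 983. In fNSF-HA cells 1043, 1054 and 1047 were followed by 1142, 1367 and 990. Its highest value in the series was thus the library that stood apart. The log2 response was -0.19 (standard error 0.0996, 95% interval -0.40 to 0.02, adjusted p = 0.118) in PBS, -0.10 (-0.31 to 0.10) in cNSF-HA and 0.14 (-0.07 to 0.35) in fNSF-HA cells, none past the threshold. With the GC trend removed, all 3 were past it and positive (0.37, 0.36 and 0.44). Without replicate 3 of the fNSF-HA cells after tBHP the response of fNSF-HA cells was 0.25 (adjusted p = 0.038), and without replicate 2 it was 0.02. Without that replicate 2, the response of PBS cells (-0.19) had an adjusted p of 0.0433, and with library weights that of cNSF-HA cells was -0.16 (adjusted p = 0.00362).

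Whether the response differed between pre-incubations was tested as a difference of responses. By limma, 0 of the 10 members and 0 of all genes (0%) passed in each of the 3 such tests. At an unadjusted p under 0.05 there were 0 members for cNSF-HA against PBS, 1 for fNSF-HA against PBS and 0 for cNSF-HA against fNSF-HA (all genes: 4.06%, 6.88% and 3.89%), and edgeR and DESeq2 also called 0 members in each. The 1 was CLK1, whose response was higher by 0.33 in fNSF-HA than in PBS cells (standard error 0.14, 95% interval 0.04 to 0.63, adjusted p = 0.667). It was 0.21 without replicate 2 and 0.44 (adjusted p = 0.0718) without replicate 3 of the fNSF-HA cells after tBHP, 0.18 with library weights and 0.07 with the GC trend removed. For all members and the 3 tests, the 95% intervals lay between -0.54 and 0.63 on the log2 scale. The tests share groups, so they are not independent of each other.

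Next, the HA preparations were compared with PBS and with each other before the oxidant. By limma, 0 of 10 members and 0 of all genes (0%) passed for cNSF-HA against PBS, fNSF-HA against PBS and cNSF-HA against fNSF-HA, and 0 members had an unadjusted p under 0.05 in any of them (all genes: 0.921%, 0.796% and 1.51%). DESeq2 and edgeR also called 0 members. The members' log2 differences lay between -0.14 and 0.08 and their 95% intervals between -0.35 and 0.24. The fit shares 1 estimate of the spread over all 18 libraries, and the libraries without tBHP varied less than those after it. In a fit of the compared groups alone, SRSF1 (-0.13, adjusted p = 0.00264) and SRSF3 (-0.14, adjusted p = 0.00185) had lower values with cNSF-HA than with fNSF-HA, among 980 genes called (7.16%), and with library weights SRSF1 was (-0.13, adjusted p = 0.0499; 0.964% of all genes). In the fit over all libraries their adjusted p was 1.00. The 3 cNSF-HA libraries lay below the 3 fNSF-HA libraries for 5 members (SRSF1, SRSF3, SRSF6, SRSF7 and CLK1) and above them for 1 (SRSF2), as they did for 17.1% and 7.91% of all genes.

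After tBHP, the same comparison asks whether HA of either length changed the state of stressed cells. By limma, 0 members passed for cNSF-HA against PBS (0% of all genes), fNSF-HA against PBS (0.139% of all genes, 19 genes) and cNSF-HA against fNSF-HA (0%). At an unadjusted p under 0.05 there were 0, 2 and 2 members, against 8.64%, 22.7% and 32.2% of all genes, so that the members' share was not above that of all genes. DESeq2 called 0, 0 and 1 member, the last against 10.3% of the genes it gave an adjusted p, and edgeR called 0 in each. These comparisons share groups and are given side by side. With library weights SRSF6 was lower in cNSF-HA than in PBS cells (-0.17, adjusted p = 0.0162, with 7.7% of all genes called, against -0.10 without weights), and with the GC trend removed it was lower in fNSF-HA than in PBS cells (-0.24, adjusted p = 0.0252, with 0.503% of genes called, against -0.05). The number of members called between cNSF-HA and fNSF-HA cells was 4 without replicate 3 of the fNSF-HA cells (SRSF2 higher, and SRSF10, SRSF11 and CLK1 lower in cNSF-HA cells, among 5586 genes called, or 40.8%) and 0 without any other single library.

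CLK1 had the widest difference in both comparisons with fNSF-HA cells. It held 886, 894 and 983 normalized counts in cNSF-HA cells, 857, 973 and 989 in PBS cells and 1142, 1367 and 990 in fNSF-HA cells, so that all 3 fNSF-HA libraries lay above the others, replicate 3 by little. The log2 difference between cNSF-HA and fNSF-HA cells was -0.33 (standard error 0.0996, 95% interval -0.54 to -0.12, adjusted p = 0.0981 from limma and 0.0373 from DESeq2), a ratio of 0.796. It was -0.21 (adjusted p = 0.572) without fNSF-HA replicate 2 and -0.44 (adjusted p = 0.0025) without replicate 3, and -0.05 (adjusted p = 0.696) with the GC trend removed. Between fNSF-HA and PBS cells it was 0.30 (standard error 0.0996, adjusted p = 0.131), or 0.15 with library weights. Without replicate 2 this difference was 0.18, and without replicate 3 it was 0.41 (adjusted p = 0.00544), where 29.4% of all genes were called. Over all genes, the lowest GC bin, which holds CLK1, had a median difference between cNSF-HA and fNSF-HA cells of -0.30 after tBHP.

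SRSF2 was the other member with an unadjusted p under 0.05 between fNSF-HA and PBS cells. It held 5118, 5016 and 5688 in fNSF-HA cells against 5688, 5943 and 5871 in PBS cells, differing by -0.15 on the log2 scale (standard error 0.060, adjusted p = 0.176). Without fNSF-HA replicate 3 it was -0.20 (adjusted p = 0.0198), and with library weights -0.09. Between cNSF-HA and fNSF-HA cells it was 0.12 (95% interval -0.01 to 0.24). Without replicate 3 this difference was 0.17 (adjusted p = 0.0313), and with library weights 0.014. SRSF11 differed between cNSF-HA and fNSF-HA cells by -0.20 (adjusted p = 0.147) and SRSF10 by -0.19 (95% interval -0.44 to 0.06). Without fNSF-HA replicate 2 the difference of SRSF11 was -0.11 and that of SRSF10 was -0.03, and without replicate 3 they were -0.27 (adjusted p = 0.0244) and -0.34 (adjusted p = 0.0193). With library weights they were -0.11 and -0.026, and with the GC trend removed 0.084 and 0.026. The other 6 members differed by between -0.09 and 0.01, with intervals within -0.27 to 0.16.

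**Figure D3:**
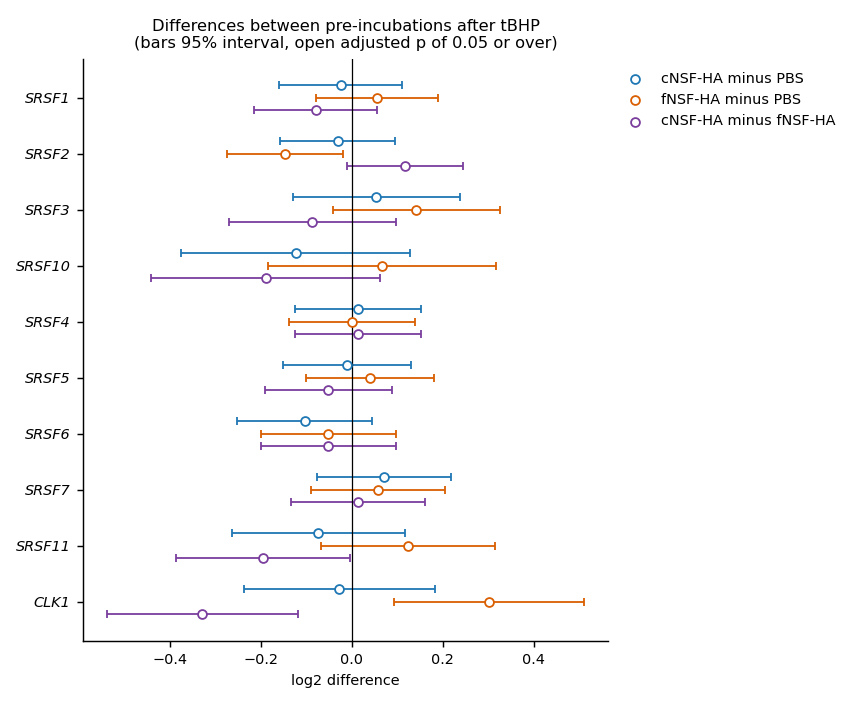
Log2 differences (x axis) between cNSF-HA and PBS, fNSF-HA and PBS, and cNSF-HA and fNSF-HA cells, all exposed to tBHP, for the 10 genes (y axis), as limma estimates with 95% intervals. All points are open, since no adjusted p was under 0.05; CLK1 lies farthest from 0, at -0.33 between the HA preparations.

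The transcripts of the members are poor in GC, and over the transcriptome the tBHP response of PBS cells rose with GC content. The longest transcripts of the members had 35.7% (CLK1) to 45.6% (SRSF2) GC, with a median of 40.1%, against a median of 47.9% over 12528 genes with a value. In PBS cells, the median response was -0.52 in the lowest of the 10 GC bins (which holds CLK1 and SRSF11), -0.37 in the second (SRSF3, SRSF4, SRSF5, SRSF6 and SRSF10), -0.23 in the third (SRSF1 and SRSF7) and -0.02 in the fifth (SRSF2), and 0.29 in the highest. In cNSF-HA cells the bin medians rose from -0.49 in the lowest to 0.31 in the highest bin. In fNSF-HA cells they rose from -0.31 to a peak of 0.08 and were -0.05 in the highest bin. The 95% intervals of SRSF10 (-0.59 to -0.09) and SRSF1 (-0.50 to -0.23) held the median of their bin, and that of SRSF2 (-0.32 to -0.07) lay below its own. SRSF4, at 40.7% GC, rose by 0.33 where the median of its bin fell by 0.37. The intervals of SRSF5, SRSF6, SRSF7, SRSF11 and CLK1 also lay above the medians of their bins, and that of SRSF3 held its own. Removing the trend subtracts any true change that follows GC content together with any trend of the libraries, and these cannot be told apart. With it removed, PBS cells had 7 members that rose and 0 that fell, cNSF-HA cells 7 and 1 (SRSF2), and fNSF-HA cells 6 and 2 (SRSF1 and SRSF2). Of the 12528 genes in that fit, 28.3% rose and 29.5% fell in PBS cells. For the cNSF-HA response these shares were 28.2% and 28.4%, and for the fNSF-HA response 27.6% and 28.5%. The members that rose in all 3 were SRSF4, SRSF5, SRSF6, SRSF7, SRSF11 and CLK1.

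**Figure D4:**
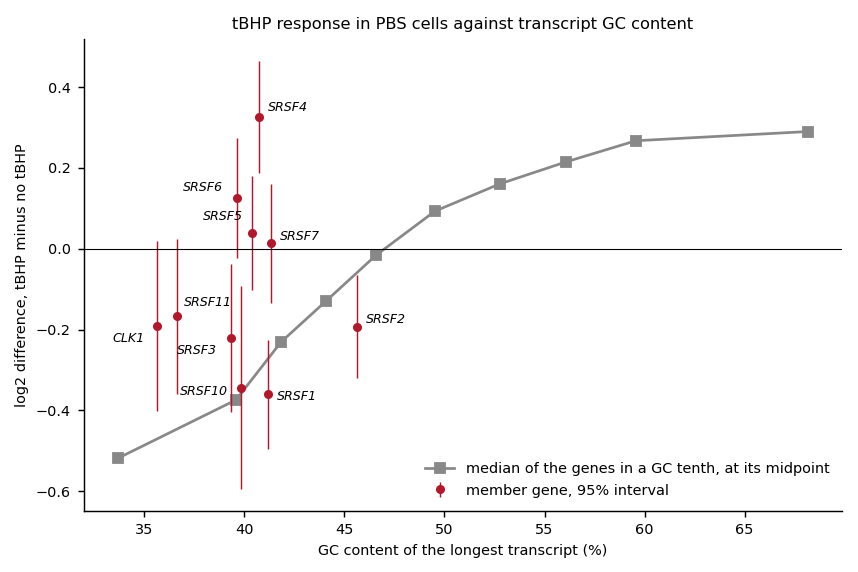
Log2 tBHP response in PBS cells (y axis) against the GC content of the longest transcript (x axis, percent). Red points are the 10 genes with 95% intervals, and grey squares the median response of the genes in each of 10 bins of GC content, at its midpoint; SRSF4, at 0.33, stands above the grey line, which is at -0.37 in its bin.

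The other genes of the pathway were counted in 5 lists written from common knowledge. The counts are from the fit with the GC trend left in, and whether they depend on transcript GC content was not tested. Among 24 other SRSF and SR-like proteins, 7 rose and 4 fell after tBHP in PBS cells, with a median log2 response of -0.03 against 0.00431 for all genes, of which 24.2% rose and 26.9% fell. The rises included THRAP3 (0.64, adjusted p = 1.18e-06) and ACIN1 (0.53, adjusted p = 4.7e-07), SR-related proteins bound to spliced messages. The falls included LUC7L2 (-0.49, adjusted p = 0.0025), a partner of the U1 particle, and SCAF11 (-0.44, adjusted p = 0.00595). TRA2A, which activates exons together with SR proteins, rose from 1586 ± 122 to 2026 ± 241 (0.35, adjusted p = 0.00346), while its paralog TRA2B was at 4697 ± 240 and 4371 ± 293 (-0.10, adjusted p = 0.236). SRSF8 (-0.16, adjusted p = 0.238) and SRSF9 (0.12, adjusted p = 0.21) did not pass, and SRSF12 was near the filter with 8.81 ± 2.11 and 15.7 ± 7.74 normalized counts. The cNSF-HA cells had 5 rises and 5 falls (all genes: 24% and 26.8%), the fNSF-HA cells 5 rises and 1 fall (19.2% and 22.7%).

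The list of SR protein kinases, catalytic subunits of protein phosphatase 1 and the import receptor TNPO3 held changes in both directions. Of its 15 genes, SRPK3 was below the filter, and 5 rose and 6 fell in PBS cells (median -0.05; all genes: 24.2% and 26.9%). CLK2 rose from 267 ± 2.47 to 349 ± 47.8 (0.38, adjusted p = 0.00654) and CLK3 from 930 ± 27.4 to 1106 ± 80.9 (0.25, adjusted p = 0.0197), whereas CLK4 fell from 290 ± 16.7 to 225 ± 27.4 (-0.37, adjusted p = 0.00934). SRPK1, the main cytoplasmic SR kinase, fell from 2997 ± 12.4 to 2185 ± 263 (-0.46, adjusted p = 0.000379), and the response of SRPK2 was 0.01 (adjusted p = 0.92). The largest rises were those of the kinases DYRK1B (1.55, adjusted p = 6.66e-06) and DYRK3 (1.04, adjusted p = 1.16e-07), the latter known to dissolve nuclear speckles. The largest falls were those of PPP1CC (-1.04, adjusted p = 2.21e-07) and PPP1CB (-0.79, adjusted p = 0.00458), catalytic subunits of protein phosphatase 1. PPP1CC had 4145 ± 197 normalized counts without tBHP and 2029 ± 246 after it. The cNSF-HA cells had 5 rises and 6 falls (all genes: 24% and 26.8%), the fNSF-HA cells 4 rises and 5 falls (19.2% and 22.7%).

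The list of hnRNP and other exon-silencing proteins, which often oppose SR proteins at exons, also holds genes outside the hnRNP family, such as PTBP2 and TIA1. Of its 24 genes, 1 rose and 12 fell in PBS cells (median -0.24; all genes: 24.2% and 26.9%). The cNSF-HA cells had 3 rises and 12 falls (24% and 26.8%), the fNSF-HA cells 3 rises and 11 falls (19.2% and 22.7%). HNRNPA1, a classical antagonist of SRSF1, was the gene that rose, from a mean of 19726 to one of 23117 (0.23, adjusted p = 0.00302). PTBP2 (-0.84, adjusted p = 0.00022) and HNRNPA3 (-0.43, adjusted p = 0.000297) fell most. Of 35 genes of the core splicing machinery, 9 rose and 4 fell in PBS cells (median 0.11), against 24.2% and 26.9% of all genes. SF3A2 (0.71, adjusted p = 0.00372) and SNRPD2 (0.44, adjusted p = 0.00035) were among the rises and SNRPE (-1.01, adjusted p = 2.08e-06) among the falls. The cNSF-HA cells had 12 rises and 3 falls (all genes: 24% and 26.8%), the fNSF-HA cells 5 and 3 (19.2% and 22.7%). Of 14 genes of nonsense-mediated decay, 6 rose and 1 fell in PBS cells (median 0.17), against 24.2% and 26.9% of all genes. SMG9 (0.71, adjusted p = 3.97e-06) and the endonuclease SMG6 (0.61, adjusted p = 1.78e-06) rose most, and MAGOH, a subunit of the exon junction complex, fell (-0.25, adjusted p = 0.0178). For this list the cNSF-HA cells had 6 rises and 0 falls (all genes: 24% and 26.8%), the fNSF-HA cells 5 and 1 (19.2% and 22.7%). In the 6 comparisons between HA preparations and PBS and in the 3 differences of responses, limma called 0 genes of any of the 5 lists.

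**Figure D5:**
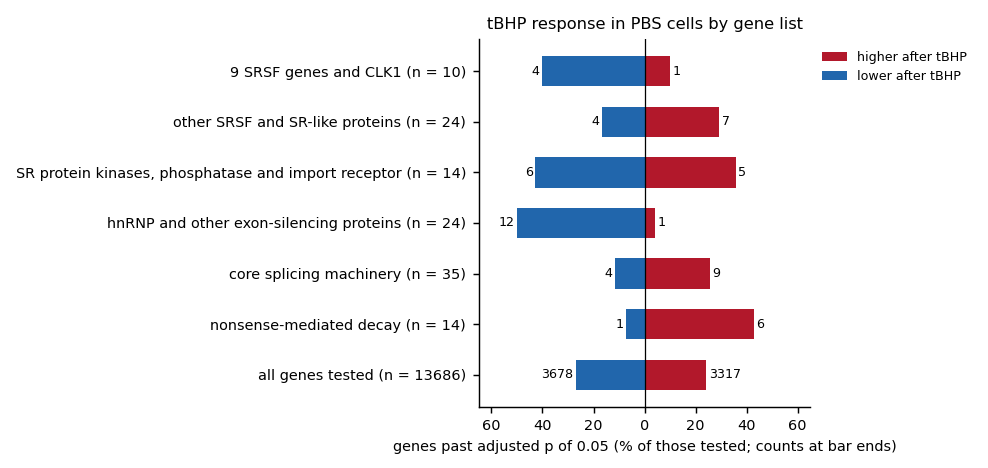
Percent of the genes of each list that passed an adjusted p of 0.05 in the tBHP response of PBS cells, higher to the right and lower to the left of 0 on the x axis, with counts at the bar ends (y axis, lists with the number tested). The list of hnRNP and other exon-silencing proteins shows 12 lower and 1 higher, nonsense-mediated decay 6 higher and 1 lower, and all genes 3317 higher and 3678 lower.

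The genes whose pattern over the 18 libraries was most like that of a member were found by the root mean square difference of their centred log2 values, over 10312 genes with a mean of at least 100. SRSF1 was nearest to RTN4 (0.044) and KHDRBS1 (0.052), against a median of 0.27 over all genes. SRSF2 was nearest to WDR5 (0.044) and SUMO3 (0.051), SRSF4 to HARS (0.045) and ZMAT2 (0.047), and SRSF10 to SEC62 (0.059) and STX7 (0.059). SRSF5 and SRSF6 had the same nearest gene, STX16 (0.037 and 0.048), and SRSF5 was nearer to SRSF6 (0.060) than all but 10 or 11 other genes, counted from either side. CLK1 was nearest to CLDND1 (0.049) and UBE2K (0.061), and among the members to SRSF11 (0.086). SRSF3, SRSF7 and SRSF11 were nearest to H2AFV (0.048), VDAC3 (0.040) and SS18 (0.049), and SRSF11 was next nearest to TRA2B (0.054). All these values share the same libraries, and with them the libraries' trend with GC content.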

How the data were processed

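IMR90 RNA-seq libraries (3 in each of 6 groups) were analysed from 1 table. The submitters' processing notes name Trimmomatic 0.32, STAR 2.5.2b, featureCounts (Subread 1.5.0-p3), the GRCh38.p7 genome and DESeq2; the annotation and strand setting are not given in the sources used here. The deposited signal values are read counts per gene that the authors divided by DESeq2 size factors. In each library 100% of the values came out as whole reads (within 0.001 read) once multiplied by its size factor. The authors' 3 columns of p-values, q-values and ranks of their own comparison were not used.

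Groups were taken from the labels. Log2(value + 1) of the 13686 genes with a mean of at least 10 was fitted with limma 3.58.1 (R 4.3.3), its variance trend on, over all 18 libraries with a coefficient for each of the 6 groups, and p-values were Benjamini-Hochberg adjusted over these genes with a threshold of 0.05. Intervals are 95% intervals of this fit. The alternatives were other pseudocounts, filters and scalings, a replicate block, edgeR 4.0.16 and DESeq2 1.42.0 on the recovered reads, the compared groups alone, library weights and each library left out, and, added after seeing the data, removal of each library's trend with transcript GC content and length (a spline with 5 degrees of freedom, 12528 genes).

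The members and gene lists were chosen with earlier results of these data known. The genes named from each list were those given by role and the 2 largest falls and rises among those past the threshold in PBS cells. One gene that this rule names is not reported here. Positions and transcripts are from GENCODE 29 and promoters from RefSeq (GRCh38.p14).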

Additional observations from a re-analysis of the deposited data

How the results depend on the processing

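Most results kept their direction and their side of the threshold. Outside the fits that leave out a library, 548 values for single genes did so, 29 newly passed the threshold, 11 lost it and 23 changed sign. With 1 library left out these numbers were 807, 12, 14 and 13. Leaving out a library outside the groups compared cannot change an estimate, only its standard error and adjusted p. Many of the 807 therefore had a fixed direction. The values counted were the tBHP responses, cNSF-HA against fNSF-HA after tBHP and a few others, not every member in every comparison. Except where a library left out or a smaller set of genes or groups is the whole change, the cause was not tested.

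The number of members called in the tBHP response was 5, 4 and 3 in PBS, cNSF-HA and fNSF-HA cells. It was 3 in PBS cells with edgeR, 7 in cNSF-HA cells with library weights, and 8 in both cNSF-HA and fNSF-HA cells once the dependence on transcript GC content and length (the GC trend) was removed. Leaving out 1 library gave 3 to 6 in PBS cells (3 without PBS replicate 2 or 3), 3 to 4 in cNSF-HA cells and 3 to 5 in fNSF-HA cells (5 without fNSF-HA + tBHP replicate 2). In these fits 43.7% to 57.9%, 43.3% to 57.8% and 34.9% to 50.6% of all genes were called. Between HA groups 0 members were called. Exceptions were cNSF-HA against fNSF-HA without tBHP, with 2 in a fit of only the groups compared and 1 with library weights; cNSF-HA against PBS after tBHP, with 1 with library weights; fNSF-HA against PBS after tBHP, with 1 with the GC trend removed and 0 to 2 with 1 library left out; and cNSF-HA against fNSF-HA after tBHP, with 1 by DESeq2 and 0 to 4 with 1 library left out. The 2 and the 4 came without fNSF-HA + tBHP replicate 3.

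Signs changed as follows. For tBHP responses, SRSF11 in fNSF-HA cells was 0.0078 with TMM scaling and 0.012 with edgeR. SRSF6 in fNSF-HA cells was -0.0046 with library weights and -0.017 with quantile normalization, which also gave -0.043 for SRSF7 in PBS cells and -0.015 for SRSF6 in cNSF-HA cells. With the GC trend removed, PBS cells had 0.18 for SRSF3, 0.032 for SRSF10, 0.35 for SRSF11 and 0.37 for CLK1, cNSF-HA cells 0.28 for SRSF3, 0.32 for SRSF11 and 0.36 for CLK1, and fNSF-HA cells 0.085 for SRSF3 and 0.24 for SRSF11. Between cNSF-HA and fNSF-HA after tBHP, library weights gave -0.041 for SRSF4 and -0.047 for SRSF7, and removal of the GC trend 0.092 for SRSF1, 0.14 for SRSF3, 0.13 for SRSF5, 0.18 for SRSF6, 0.026 for SRSF10 and 0.084 for SRSF11.

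With 1 library left out, tBHP responses whose sign changed were SRSF5 (-0.0074 to 0.11) and SRSF7 (-0.016 to 0.065) in PBS cells and SRSF6 (-0.026 to 0.077), SRSF7 (-0.0037 to 0.059) and SRSF11 (-0.14 to 0.025) in fNSF-HA cells. Between cNSF-HA and fNSF-HA after tBHP they were SRSF3 (-0.17 to 0.0025), SRSF4 (-0.028 to 0.047), SRSF6 (-0.096 to 0.0071) and SRSF7 (-0.066 to 0.056).

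The deviations of same-numbered replicates of different groups had correlations of -0.12 to 0.33 (45 pairs, median 0.034, 7 over 0.1). Those of differently numbered replicates had correlations of -0.43 to 0.42 (90 pairs, median -0.017, 5 over 0.1). The ranges overlapped, so these values cannot decide whether the numbers pair the samples. With a replicate block, the members called in the tBHP responses were the same as without it, except that SRSF10 was added in fNSF-HA cells (-0.27). In the other comparisons no member was called.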
